A study of Mus musculus with 95 samples.

Results

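Dorsal hippocampus of female mice of the FKBP51-Dlx-Cre line was compared between 6 Fkbp5 knockouts (KO) and 6 wild types (WT). The 12 libraries were taken by line, region, sex and genotype from the 95 libraries of the series. Dlx-Cre uses regulatory sequence of Dlx5 and Dlx6 and is active in forebrain GABAergic neurons, and the line is called the Dlx line here. All animals had a C57BL/6 background and were sampled at baseline with no treatment, and the sources used here give no ages. Total RNA was taken from brains that had been snap-frozen. The design counts mice per condition, so each library of a condition is taken as a separate mouse. Males of this line and region, females of this line in the bed nucleus of the stria terminalis, and hippocampus of females of the FKBP51-Nex-Cre line, which deletes Fkbp5 in glutamatergic neurons, served for the tests of difference, with 6 KO and 6 WT libraries each. The wild types are named only as such, and neither whether they carried Cre nor which part of the gene was deleted was stated.

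FKBP51, the protein of Fkbp5, is a co-chaperone that joins the HSP90 complex of the glucocorticoid receptor and lowers its affinity for hormone. Glucocorticoids in turn raise transcription of Fkbp5, which closes a short feedback loop on stress hormone signalling. GABAergic neurons are a minority of hippocampal cells, while pyramidal and granule neurons and glia also transcribe Fkbp5.

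The targeted gene was measured first. Fkbp5 (ENSMUSG00000024222, GRCm38 chromosome 17, 28399094 to 28517527, minus strand) had levels, as counts scaled to library size (CPM), of 43.8 at the lowest, 54.8 at the median and 90.7 at the highest KO library, against 44.1, 57.2 and 60.3 CPM in WT. The groups overlapped, and the highest KO value was that of replicate 8, a library that stood apart and is described after the target gene. The log2 fold change, KO over WT, was 0.17 (SE 0.15) with all libraries and 0.02 (SE 0.12, 95% interval -0.24 to 0.28) without replicate 8, with Benjamini-Hochberg adjusted p = 0.693 and 0.996 in edgeR's quasi-likelihood test. The exact two-sided permutation test gave p = 0.541 and 0.991. A loss of the gene was therefore not visible in its summed count, and the animals are called by their labelled genotype. A gene-level count can hold RNA of a shortened transcript. In bulk tissue fewer cells of a type and less RNA per cell cannot be told apart.

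In the bed nucleus the same line showed a clear loss in females, 4.99 to 12.1 CPM in KO against 22.9 to 29.5 CPM in WT, with no overlap. There, in a shared fit without hippocampal replicate 8, Fkbp5 fell by 1.66 on the log2 scale (SE 0.18, edgeR adjusted p = 4.72e-05). It was the 1 gene (0.00534%) called in that region. The labelled replicate 8 of that KO group had 8.38 CPM of Fkbp5 in the bed nucleus. The difference between the regions, hippocampus less bed nucleus, was 1.84 (SE 0.28, edgeR adjusted p = 0.0209) and 1.69 (SE 0.25, adjusted p = 0.0106) without the hippocampal replicate 8. Title numbers recur in both regions, so same-numbered libraries may come from the same mouse. With the title number as a block the difference was 1.82 and no longer passed (edgeR adjusted p = 0.418). Females of the Nex line had 19.8 to 34.7 CPM of Fkbp5 in KO hippocampus against 50.6 to 64.2 CPM in WT hippocampus. In a shared fit without Dlx replicate 8, Fkbp5 fell there by 1.07 on the log2 scale (SE 0.13, edgeR adjusted p = 0.000256). It was 1 of 2 genes (0.0108%) called there. The difference between the lines, Dlx less Nex, was 1.26 (SE 0.23) and did not pass with edgeR (adjusted p = 0.253, and 0.0608 without replicate 8), but passed with DESeq2 (1.25, adjusted p = 0.00292). Males of the Dlx line had 52.2 to 64.0 CPM of Fkbp5 in KO hippocampus and 47.5 to 74.3 CPM in WT hippocampus, and the sex difference of 0.26 (SE 0.21) did not pass (edgeR adjusted p = 0.682). Without female replicate 8 the sex difference of Fkbp5 was 0.10 (SE 0.17), and with 1 surrogate variable 0.03.

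**Figure D1:**
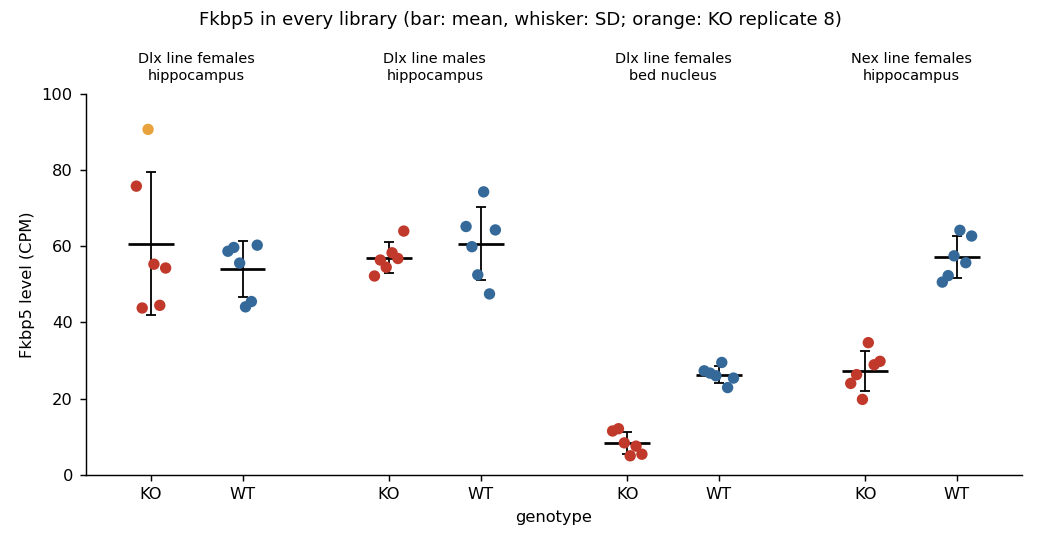
Level of Fkbp5 (CPM, linear axis) in every library of the 8 groups used, with the mean (bar) and SD (whisker) of each group. In hippocampus of the Dlx line KO and WT overlap in both sexes, while KO lie below WT in the bed nucleus of the same line and in hippocampus of the Nex line.

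Total counts of the 12 libraries ran from 20753388 to 24786514. KO replicate 8 had counts for 17863 genes, against 24247 to 24966 in the other 11. Of 15475 genes with a mean of at least 1 CPM, 48.18% lay more than 1 log2 unit from the mean of the other libraries in replicate 8, against 0.35% to 2.2% in the others. The departure followed gene length, with a median log2 difference of 0.84 in the shortest of 4 equal length classes of genes, 0.08 and -0.39 in the next, and -0.91 in the longest. It had 39560 summed CPM of 32 cytosolic ribosomal protein genes, against 4198 to 5451 in the other KO and 4685 to 5195 in WT. Messenger RNAs of the mitochondrial genome summed to 8514 CPM in it, against 30300 to 41230 in the other KO and 30490 to 35010 in WT. Counts over all genes are given with and without this library, and members of the lists mostly without it. No value for its RNA quality was given, and the cause was not tested. Xist, transcribed from the inactive X chromosome, was at 425 CPM or more in all 12 libraries, and the Y-linked Ddx3y at no more than 0.0916 CPM.

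**Figure D2:**
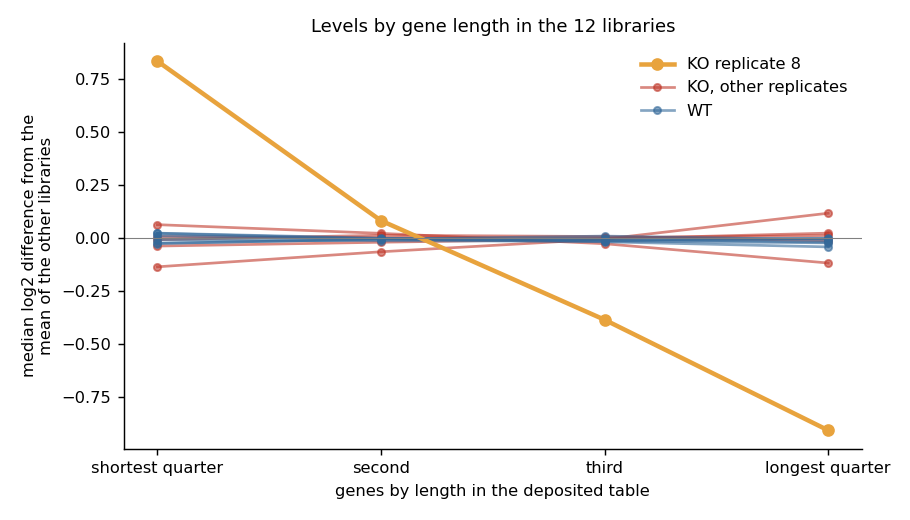
Median log2 difference of each library from the mean of the other libraries (vertical axis) for genes grouped into 4 equal classes by length in the deposited table (horizontal axis). KO replicate 8 runs from 0.84 to -0.91. Among the other 11, KO replicate 7 runs from -0.136 to 0.117 and KO replicate 18 from 0.063 to -0.118. The lines of the rest are flatter.

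No gene passed an adjusted p of 0.05 between KO and WT by edgeR. With all 12 libraries 18293 genes were tested and 0% were called, with 1945 (10.6%) at an unadjusted p under 0.05, of which 1511 (8.26%) were higher and 434 (2.37%) lower in KO. Without replicate 8 18467 genes were tested and again 0% were called, with 1001 (5.42%) at an unadjusted p under 0.05, 2.48% of all genes higher and 2.94% lower. DESeq2 called 0 genes in both settings. A fit with 1 surrogate variable called 1 gene with all libraries and 0 without replicate 8, while limma, weighting libraries by quality, called 2 and 1. These calls were Gadd45g and, with all libraries, the pseudogene Gm3756. Every KO library lay above every WT library for 27 genes (0.148%) and below for 21 (0.115%). Without replicate 8 this held for 64 (0.347%) and 44 (0.238%). All values below are therefore differences that did not pass over all genes unless a call is named. The shares of 2.48% higher and 2.94% lower are the background of each list count without replicate 8.

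Metallothionein 2, Mt2 (ENSMUSG00000031762, GRCm38 chromosome 8, 94172664 to 94173568), was among the 8 genes with the smallest p that were higher with all libraries. Metallothioneins are small cysteine-rich proteins that bind zinc and copper, and metals and glucocorticoids both induce them. Mt2 had 3.78 CPM at the lowest, 4.82 at the median and 96.6 at the highest KO library, against 0.802, 1.42 and 2.96 CPM in WT. All 6 KO lay above all 6 WT, as for 0.148% of all genes. The log2 fold change was 3.56 (SE 0.79) with all libraries and 1.47 (SE 0.43) without replicate 8, which carried the value of 96.6 CPM, with edgeR adjusted p = 0.460 and 0.756. The exact permutation test gave p = 0.00216 and 0.00649. Mt2 was picked by its small p in these same libraries and its groups do not overlap. The permutation test restates that separation and is no separate support. The gene is 588 bases long in the deposited table, within the length class that replicate 8 holds in excess.

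Mt2 also stood higher in the 3 other KO comparisons, which use other libraries, those of the bed nucleus perhaps from the same mice. The log2 fold change was 1.17 (SE 0.42) in males of the Dlx hippocampus, 0.97 (SE 0.38) in the bed nucleus of Dlx females and 0.98 (SE 0.41) in the hippocampus of Nex females, with unadjusted p of 0.0105, 0.0188 and 0.0248 by edgeR and none past the adjusted threshold (0.386, 0.700 and 0.990). All 3 values are from fits without replicate 8 of the female Dlx hippocampus. With that library in the fit the male value was 1.16 (SE 0.77, edgeR adjusted p = 0.998). The bed nucleus and Nex values were not computed with it. At an unadjusted p under 0.05, 5.26%, 3.31% and 1.71% of all genes were higher in the 3 fits without it. The KO and WT ranges of Mt2 overlapped in each of them, at 0.497 to 5.12 against 0.760 to 3.63 CPM in males, for example. The difference of Mt2 between the sexes, females less males, was 2.39 (SE 1.07) with replicate 8 and 0.30 (SE 0.60) without it.

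Mt1 (GRCm38 chromosome 8, 94179082 to 94180327), the neighbour and close paralog of Mt2, had 159 CPM at the lowest, 206 at the median and 1540 at the highest KO library, against 157, 164 and 181 CPM in WT. The groups overlapped at their low ends, with KO replicates 6, 18 and 8 above all WT. Its log2 fold change was 1.34 (SE 0.42) with all libraries and 0.24 (SE 0.14) without replicate 8. How reads that match both paralogs were counted was not stated. Of 11 metal-responsive genes tested without replicate 8, 1 was higher, Mt2 itself, and 0 were lower at an unadjusted p under 0.05. Over all genes 2.48% were higher and 2.94% lower. The median of the list was 0.03, with 6 members above 0 and 5 below. With all libraries 3 were higher (8.26% of all genes) and 0 lower, with a median of -0.01. The promoters of Mt2 and Mt1 are shown because metals act on them through metal response elements. Each runs from 250 bases before to 50 after the transcription start (RefSeq, GRCm38.p6, plus strand), Mt2 at chr8:94172368-94172667 and Mt1 at chr8:94178839-94179138. Capitals mark matches to the 7-letter core of that element, searched as TGCACNC and TGCGCNC on both strands.
Mt2: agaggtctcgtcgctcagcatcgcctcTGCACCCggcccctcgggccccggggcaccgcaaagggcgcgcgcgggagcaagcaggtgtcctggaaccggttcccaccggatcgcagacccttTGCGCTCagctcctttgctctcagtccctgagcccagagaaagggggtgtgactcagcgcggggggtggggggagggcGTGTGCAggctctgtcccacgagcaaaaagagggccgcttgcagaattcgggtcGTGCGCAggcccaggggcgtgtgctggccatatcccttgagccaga
Mt1: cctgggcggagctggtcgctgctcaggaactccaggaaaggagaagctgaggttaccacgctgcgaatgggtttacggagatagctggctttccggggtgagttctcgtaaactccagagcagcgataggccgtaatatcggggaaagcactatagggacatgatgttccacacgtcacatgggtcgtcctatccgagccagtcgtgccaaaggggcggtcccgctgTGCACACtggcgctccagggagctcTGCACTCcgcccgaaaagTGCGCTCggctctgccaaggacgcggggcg
The Mt2 window holds 4 matches and the Mt1 window 3, no 2 of which overlap. Of 32851 promoter windows 25.7% hold at least 1 match, 1.97% at least as many as Mt1 and 0.52% at least as many as Mt2. A match is a run of letters, not a measured binding site.

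Genes that glucocorticoids induce form the list closest to the known role of FKBP51. Of 25 tested without replicate 8, 7 had an unadjusted p under 0.05 and were higher in KO (2.48% of all genes), and 0 were lower. Mt2, described above, is among these 7, so its result and the list count are not separate. The median log2 fold change of the list was 0.16, against -0.00 over all genes, with 18 members above 0 and 7 below. With all libraries 5 were higher (8.26% of all genes) and 0 lower, with a median of 0.12 against -0.01 over all genes. No member was called.

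Tsc22d3, which encodes the anti-inflammatory mediator GILZ (GRCm38 chromosome X, 140539528 to 140600659), had 45.8 CPM at the lowest, 53.0 at the median and 64.5 at the highest KO library, against 39.0, 41.7 and 45.2 CPM in WT. All 6 KO lay above all 6 WT, as for 0.148% of all genes, and the gene was chosen after its values were seen. The log2 fold change was 0.37 (SE 0.12) with all libraries and 0.31 (SE 0.11) without replicate 8, with edgeR adjusted p = 0.460 and 0.906. In males Tsc22d3 had 28.8 to 39.9 CPM in KO and 30.6 to 49.1 CPM in WT, a log2 fold change of -0.16 (SE 0.10). The difference between the sexes was 0.54 (SE 0.17, edgeR adjusted p = 0.628).

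Hif3a, a hypoxia-inducible factor subunit that glucocorticoids raise, had 5.68 to 15.6 CPM in 5 KO and 0.948 CPM in KO replicate 8, against 4.40 to 6.90 CPM in WT. It overlapped WT, with KO replicate 6 at the top. Its log2 fold change was 0.71 (SE 0.21, edgeR adjusted p = 0.784) without replicate 8 and 0.47 (SE 0.33) with it. Gjb6, the astrocytic gap junction protein connexin 30, had 43.8 to 56.8 CPM in the same 5 KO, 28.9 CPM in replicate 8 and 36.1 to 47.2 CPM in WT, a log2 fold change of 0.30 (SE 0.10) without replicate 8. The other members at an unadjusted p under 0.05 were Dusp1, a phosphatase that turns off MAP kinases (0.35, SE 0.16), Plin4, a lipid droplet coat protein (0.69, SE 0.32), and Xdh, which makes uric acid (0.34, SE 0.16).

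KO replicate 6 was the highest of the 5 KO for Hif3a (15.6 CPM), Plin4 (21 CPM against 4.19 to 6.28 in the other 4), Xdh (16.6), Gjb6 (56.8), Sgk1 (109, the glucocorticoid-induced kinase) and Fkbp5 itself (75.8). Without both replicates 6 and 8 the list had 5 members higher and 1 lower at an unadjusted p under 0.05, and a median of 0.06. Of all 18683 genes tested there, 558 were higher and 658 lower. With replicate 8 kept and replicate 6 left out, 4 members were higher and 0 lower and the median was -0.00. Of all 18499 genes tested there, 2080 were higher and 626 lower. The clock gene Per1, a direct target of the glucocorticoid receptor, had 87.1 to 110 CPM in the 5 KO and 84.4 to 116 CPM in WT (log2 fold change 0.10, SE 0.08). Klf9 (0.00), Zbtb16 (-0.00) and Ddit4 (-0.02), 3 further targets of the receptor, had log2 fold changes next to 0 without replicate 8.

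In the other comparisons the list had 5 members higher and 0 lower in the bed nucleus of Dlx females (3.31% and 3.07% of all genes), 1 higher and 2 lower in Dlx males (5.26% and 6.64%; 0 and 1 with female replicate 8 in the fit, against 1.33% and 1.87%), and 1 higher and 0 lower in Nex females (1.71% and 2.27%), all at an unadjusted p under 0.05. The medians were 0.16, -0.09 and -0.01. The bed nucleus and Nex counts also come from fits without hippocampal replicate 8. Mt2 was the 1 member higher in Dlx males without female replicate 8 and the 1 higher in Nex females. Mt2, Hif3a and Plin4 were among those higher in the bed nucleus of Dlx females, at 0.97 (SE 0.38), 0.69 (SE 0.28) and 1.15 (SE 0.49). The Mt2 result and these list counts are therefore not separate. The difference of the list between the comparisons was not tested.

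**Figure D3:**
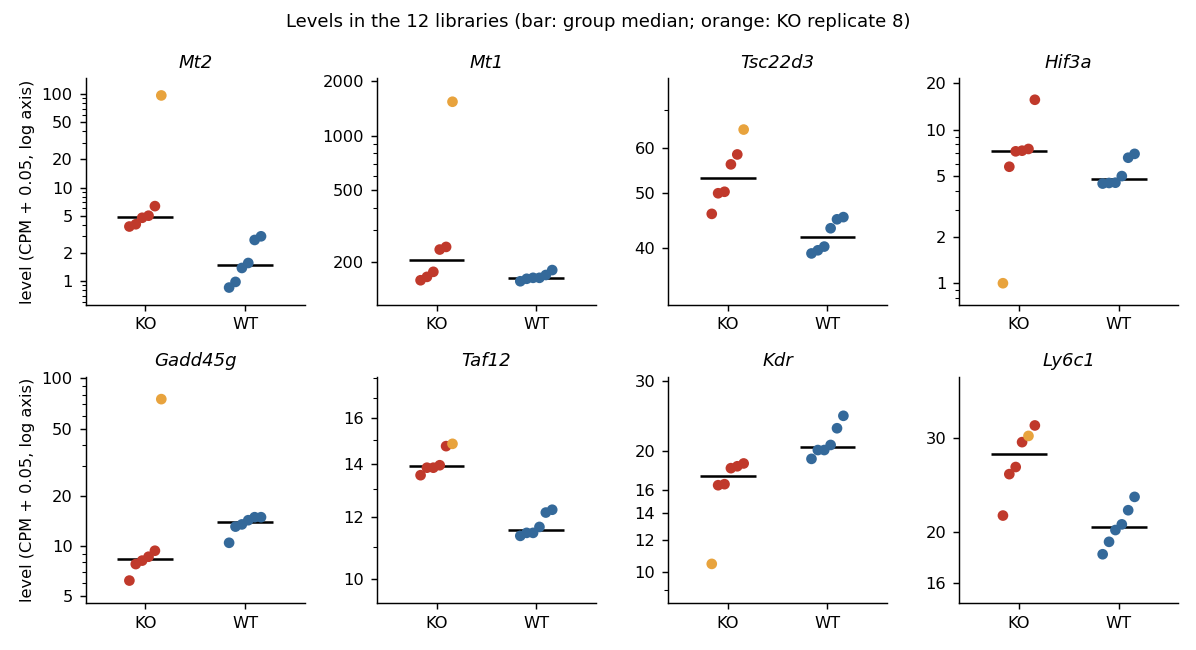
Levels (CPM with 0.05 added, log axis) of 8 genes in the 6 KO and 6 WT libraries, with the group median as a bar. KO lie above WT for Mt2, Tsc22d3 and Taf12 and below for Kdr, while KO replicate 8 (orange) sits far from the other 5 KO for Mt2, Mt1, Gadd45g and Hif3a.

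Gadd45g (ENSMUSG00000021453, GRCm38 chromosome 13, 51846678 to 51848468) encodes a stress-inducible protein of growth arrest and DNA demethylation. It had 7.75, 6.17, 9.32, 8.58 and 8.13 CPM in KO replicates 6, 7, 18, 19 and 21 and 75.1 CPM in replicate 8, against 10.4 CPM at the lowest, 13.8 at the median and 14.8 at the highest WT library. The 5 KO lay below all WT, as for 0.238% of all genes without replicate 8, and replicate 8 above them all. The log2 fold change was -0.75 (SE 0.17, edgeR adjusted p = 0.756, exact permutation p = 0.00433) without replicate 8. With replicate 8 it was 0.52 (SE 0.46, edgeR adjusted p = 0.692, exact permutation p = 0.885). The permutation test without replicate 8 restates the separation of the 5 KO from WT and is no separate support. Limma with library quality weights called Gadd45g with all libraries (-0.72, adjusted p = 0.0343) and without replicate 8 (-0.73, adjusted p = 0.0183), and the fit with 1 surrogate variable called it with all libraries (-0.69, adjusted p = 0.00708).

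Males of the same line and region, measured in other animals, had 5.41 to 8.46 CPM of Gadd45g in KO. Male WT had 11.8 to 28.4 CPM, with no overlap. The share of all genes without overlap was not computed in males. There Gadd45g fell by 1.28 on the log2 scale (SE 0.17, edgeR adjusted p = 0.00113) where female replicate 8 was left out of the shared fit, the 1 gene (0.00542%) called in males. With that female library in the fit the male value was -1.30 (SE 0.47) and did not pass (edgeR adjusted p = 0.998). The sex difference of Gadd45g without replicate 8, females less males, was 0.53 (SE 0.24, edgeR adjusted p = 0.965). In the bed nucleus of Dlx females the log2 fold change was -0.01 (SE 0.17), and in the hippocampus of Nex females -0.03 (SE 0.11). The difference from the bed nucleus was -0.74 (SE 0.25) and from the Nex line -0.71 (SE 0.16), each without replicate 8 and neither past the adjusted threshold. Gadd45a, its relative, had a log2 fold change of -0.64 (SE 0.28) in females without replicate 8. Of 17 genes of the Gadd45 family and the DNA methylation enzymes, 0 were higher and 2 lower, these 2, with a median of -0.05. The threshold was an unadjusted p under 0.05, which without replicate 8 2.48% of all genes passed as higher and 2.94% as lower.

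Fabp7, a fatty acid carrier of astrocytes and neural progenitors, had 5.45 to 8.58 CPM in 5 KO and 29.5 CPM in replicate 8, against 7.66 to 15.2 CPM in WT. Its log2 fold change was -0.71 (SE 0.18, edgeR adjusted p = 0.756) without replicate 8 and -0.09 (SE 0.32) with it. In males Fabp7 had 10.3 to 11.2 CPM in KO and 14.4 to 27.8 CPM in WT. Its log2 fold change there was -0.70 (SE 0.17, edgeR adjusted p = 0.371). In that fit 6.64% of all genes were lower at an unadjusted p under 0.05. The processed pseudogene Gm3756 had 1.0 to 7.06 CPM in KO females and 6.62 to 11.9 CPM in WT females, a log2 fold change of -1.15 (SE 0.30) with all libraries and -0.95 (SE 0.24) without replicate 8. Limma with library quality weights called it with all libraries (-1.38, adjusted p = 0.0343). In males Gm3756 had a log2 fold change of -1.15 (SE 0.23, edgeR adjusted p = 0.209). Counts of a processed pseudogene are uncertain, since reads of its parent gene can match it.

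Among the genes with the smallest p without replicate 8, the pseudogene Gm8394 had 3.60 to 6.71 CPM in 5 KO and 2.96 CPM in replicate 8, against 1.97 to 3.35 CPM in WT (0.88, SE 0.19, edgeR adjusted p = 0.756). Mmp14, a membrane-bound protease of the extracellular matrix, had 9.21 to 12.6 CPM in all 6 KO and 12.3 to 21.5 CPM in WT, with log2 fold changes of -0.48 (SE 0.12) with and -0.51 (SE 0.12) without replicate 8. Tatdn3, a predicted deoxyribonuclease, had 23.5 to 43.6 CPM in KO and 19.9 to 23.8 CPM in WT (0.33, SE 0.08 without replicate 8). Clk1, a kinase that sets splicing factor activity, had 118 to 148 CPM in 5 KO, 66.1 CPM in replicate 8 and 102 to 120 CPM in WT (0.24, SE 0.06). Npy5r, a receptor of neuropeptide Y, had 6.76 to 10.1 CPM in the 5 KO, 5.19 CPM in replicate 8 and 4.88 to 7.82 CPM in WT (0.50, SE 0.13). Neu4, a sialidase, had 12.3 to 15.7 CPM in KO and 9.12 to 13.0 CPM in WT (0.39, SE 0.11). Catip, which acts in the actin of cilia, had 0.838 to 1.52 CPM in the 5 KO, 2.45 CPM in replicate 8 and 1.30 to 3.93 CPM in WT (-0.98, SE 0.23). All of these had edgeR adjusted p = 0.756.

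Further named features separated all 6 KO from all 6 WT, as 0.148% of all genes did above and 0.115% below. They are described here because they separate, so no test is given. Taf12, part of the TFIID complex of basal transcription, had 13.5 to 14.8 CPM in KO and 11.3 to 12.2 CPM in WT, a log2 fold change of 0.27 (SE 0.08) with and 0.26 (SE 0.08) without replicate 8. In males Taf12 had 9.57 to 11.7 CPM in KO and 11 to 14.5 CPM in WT, and the difference between the sexes was 0.50 (SE 0.12, edgeR adjusted p = 0.628). Kdr, the main receptor of vascular endothelial growth factor on vessels, had 16.4 to 18.6 CPM in 5 KO and 10.4 CPM in replicate 8, against 19.1 to 24.5 CPM in WT. Its log2 fold changes were -0.37 (SE 0.15) and -0.27 (SE 0.12). The pseudogene Gm13680 had 1.63 to 4.68 CPM in KO and 1.10 to 1.63 CPM in WT, the pseudogene Gm8430 4.32 to 101 CPM in KO (replicate 8 highest) and 1.92 to 4.03 CPM in WT, and the antisense transcript Gm42984 had 1.78 to 2.32 CPM in KO and 2.65 to 3.01 CPM in WT.

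Markers of the targeted cells were next. Of 20 genes of GABAergic identity, 0 were higher and 0 lower at an unadjusted p under 0.05, with a median of -0.00 without replicate 8 and -0.07 with it. Gad1, which makes GABA, had 304 to 387 CPM in 5 KO and 171 CPM in replicate 8, against 305 to 397 CPM in WT, a log2 fold change of 0.04 (SE 0.09) without replicate 8. Gad2, the second enzyme of GABA synthesis, stood at -0.06 (SE 0.13) and the vesicular GABA transporter Slc32a1 at -0.00 (SE 0.11). Dlx5 had 2.83 to 4.18 CPM in KO and 2.70 to 4.03 CPM in WT (-0.02, SE 0.15), and Dlx6 0.589 to 2.44 CPM in 5 KO, 9.31 CPM in replicate 8 and 1.29 to 2.96 CPM in WT (0.02, SE 0.27). Summed over the list, the 5 KO had 1244 to 1551 CPM, replicate 8 had 635 CPM and WT 1357 to 1437 CPM.

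Interneuron classes had a median of -0.06 without replicate 8 and 0.25 with it. Without it 1 of 21 members had an unadjusted p under 0.05, against 5.42% of all genes. That member was Lamp5, a marker of neurogliaform cells and of some cortical layers, at 32.6 to 40.2 CPM in 5 KO and 65.9 CPM in replicate 8, against 26.7 to 44.5 CPM in WT (0.23, SE 0.11). The peptides and markers of the main classes overlapped: Sst had 54.8 to 175 CPM in the 5 KO and 66.3 to 208 CPM in WT, and Pvalb 17.1 to 24.4 and 20.8 to 34.3 CPM. Their log2 fold changes without replicate 8 were -0.10 (SE 0.29) and -0.24 (SE 0.17). Npy stood at -0.17 (SE 0.17) and Vip at 0.32 (SE 0.26). Replicate 8 held 452 CPM of Sst and 172 CPM of Pvalb.

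GABA-A receptor subunits, the targets of the transmitter, all had log2 fold changes above 0 without replicate 8, 13 of 13. Their median was 0.11, against -0.00 over all genes, and 1 member had an unadjusted p under 0.05 (5.42% of all genes). With all libraries 8 of 13 lay above 0 and the median was 0.01. The members share the same libraries, so a common sign is not 13 separate results. Summed over the list, the 5 KO had 1756 to 2144 CPM, replicate 8 had 1101 CPM and WT 1660 to 1823 CPM. Of 15 glutamate receptor subunits 0 were higher and 0 lower, with a median of -0.03.

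Partners of FKBP51 gave few members. Of 23 steroid receptors and HSP90 co-chaperones, 1 was higher and 0 lower at an unadjusted p under 0.05 without replicate 8, with a median of -0.00. The glucocorticoid receptor Nr3c1 had 85.4 to 134 CPM in 5 KO and 42.0 CPM in replicate 8, against 95.7 to 129 CPM in WT (-0.00, SE 0.12). The mineralocorticoid receptor Nr3c2, which binds corticosterone with high affinity in hippocampus, stood at 0.00 (SE 0.12). Hsp90aa1, the chaperone itself, stood at -0.03 (SE 0.07) and Fkbp4, the relative that opposes FKBP51 on the receptor, at -0.07 (SE 0.10). The member at an unadjusted p under 0.05 was Chordc1, an HSP90 co-chaperone, with 70.1 to 91.2 CPM in the 5 KO, 60.2 CPM in replicate 8 and 58.6 to 73.9 CPM in WT (0.21, SE 0.08). Of 13 FKBP relatives 1 was higher, Fkbp3 (0.13, SE 0.06), and 0 lower. Of 18 genes of the AKT pathway, in which FKBP51 acts as a scaffold for the phosphatase PHLPP, 0 were higher and 0 lower, with a median of -0.01. Of 23 genes around Fkbp5 on chromosome 17, 0 were higher and 2 lower, Scube3 (-0.47, SE 0.18) and Tead3 (-0.41, SE 0.19). Over all genes tested 2.48% were higher and 2.94% lower, the background for each count of this paragraph.

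Markers of tissue beside the hippocampus differed between the libraries. Of 13 choroid plexus genes tested without replicate 8, 0 were higher and 12 lower in KO at an unadjusted p under 0.05 (2.94% of all genes lower), with a median of -2.27, and with all libraries 0 were higher and 10 of 12 lower (2.37% of all genes), with a median of -2.04. No member was called. Slc4a5, a bicarbonate transporter of that epithelium, had at most 1.08 CPM in KO, against 14.1, 3.12 and 8.98 CPM in WT replicates 1, 3 and 10 and no more than 0.524 CPM in the other WT. Clic6, an intracellular channel protein, had 0.241 to 2.65 CPM in KO, against 31 CPM, 4.51 CPM and 24.2 CPM in the same 3 WT. Summed over the list, the 5 KO had 202 to 256 CPM, replicate 8 had 116 CPM and WT had 203 to 2094 CPM, and the defining markers Folr1 and Slc4a5 were at 0 in KO replicate 8. Without that library, Folr1 had 0 to 0.687 CPM in KO, against 14, 1.4 and 5.5 CPM in WT replicates 1, 3 and 10. Without WT replicate 1 the count without KO replicate 8 was 5 lower of 11 tested, and limma with library quality weights gave 3 lower. Of 11 ependymal genes 0 were higher and 4 lower, with a median of -0.97, but without WT replicate 1 as well 0 of 9 were lower and the median was -0.42. Foxj1, the regulator of motile cilia, had 2.12 to 7.11 CPM in KO, against 22.3 CPM in WT replicate 1 and 4.24 to 9.02 CPM in the other WT.

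Of 13 striatal genes 0 were higher and 5 lower without replicate 8 (2.94% of all genes lower), with a median of -0.26, led by the forebrain regulator Six3, at no more than 0.442 CPM in KO against 18 CPM in WT replicate 3. The adenosine receptor Adora2a had 1.4 to 4.02 CPM in KO and 2.56 to 9.26 CPM in WT (-0.97, SE 0.27). Of 16 thalamic genes 0 were higher and 0 lower, with a median of -0.64. Tcf7l2, a thalamic transcription factor, reached 34 CPM in KO replicate 8 and 66.1 CPM in WT replicate 3. The choroid plexus sums of WT replicates 11 and 14 (241.5 and 203.3 CPM) lay near those of the KO, and replicate 12 had 340.7 CPM. The part of these neighbouring tissues in the other differences was not tested.

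**Figure D4:**
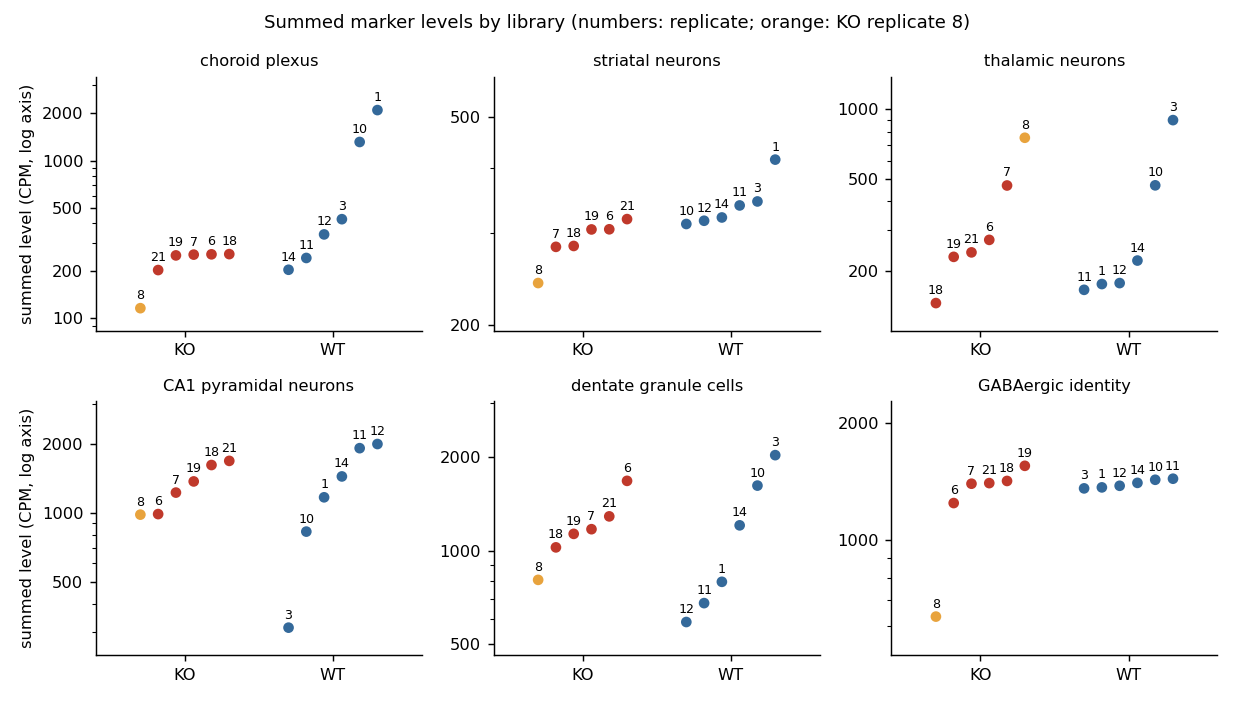
Summed levels (CPM, log axis) of 6 marker lists in each KO and WT library, numbered by replicate. WT replicates 1, 3 and 10 carry the high choroid plexus sums, and WT replicate 3 the lowest CA1 and the highest thalamic and dentate sums.

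Within the hippocampus the subfields also varied between libraries. CA1 markers summed to 987 to 1688 CPM in 5 KO, 982 CPM in replicate 8 and 314 to 2001 CPM in WT, and dentate granule cell markers to 1024 to 1678, 805 and 588 to 2031 CPM. Wfs1, a CA1 marker, ranged from 180 to 375 CPM in KO and from 58.8 to 415 CPM in WT, and Prox1, the regulator of granule cell identity, from 107 to 193 CPM in 5 KO, at 19.2 CPM in replicate 8, and from 56.6 to 256 CPM in WT. All 13 markers of CA2 and CA3 had log2 fold changes below 0 without replicate 8, with 0 at an unadjusted p under 0.05. Their median was -0.22, against -0.00 over all genes. They share the same libraries, so a common sign is not 13 separate results. The medians of CA1 (0.08) and dentate (0.16) lists lay above 0, again with 0 at that threshold.

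Glia and vessels gave few members. Of 20 myelin and oligodendrocyte genes 0 were higher and 0 lower, with a median of -0.12, and of 17 microglial genes 0 and 0, with a median of -0.05. Of 16 astrocyte genes 1 was higher, Gjb6, and 1 lower, the astrocyte regulator Sox9 (-0.18, SE 0.08). Of 19 vessel genes 1 was higher and 1 lower, where 2.48% and 2.94% of all genes were. The higher one was Ly6c1, a surface protein of endothelium, at 21.4 to 31.6 CPM in KO and 18.1 to 23.2 CPM in WT (0.42, SE 0.14 with and 0.39, SE 0.14 without replicate 8), and the lower one was Kdr. In males Ly6c1 stood at -0.17 (SE 0.13), and its difference between the sexes was 0.61 (SE 0.20, edgeR adjusted p = 0.628). Of 24 immediate early genes, which neuronal activity induces, 1 was higher, Dusp1, and 0 lower.

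Other lists changed with replicate 8 in or out of the fit. In the fit with it 8.26% of all genes were higher at an unadjusted p under 0.05, against 2.48% without it. With it 28 of 32 cytosolic ribosomal protein genes were higher at that threshold, with a median of 1.05, and without it 0 were higher and 1 lower, with a median of -0.05. Of 29 nuclear genes of oxidative phosphorylation 19 were higher with replicate 8 (median 0.85) and 1 without it (median -0.04), Ndufb2, a subunit of complex I at 18.9 to 22.9 CPM in 5 KO, 126 CPM in replicate 8 and 12.2 to 20.8 CPM in WT (0.38, SE 0.11 without replicate 8). Of 18 interferon, MHC class I and complement genes 8 were higher with it (median 0.63) and 2 without it (median 0.04), among them Isg15, an interferon-induced ubiquitin-like protein (0.61, SE 0.22). For 13 messenger RNAs of the mitochondrial genome the counts were 2 with and 3 without replicate 8, all higher, with medians of -0.04 and 0.16. Mt-Nd4, a subunit of complex I, had 2790 to 3720 CPM in the 5 KO, 594 CPM in replicate 8 and 2730 to 3190 CPM in WT.

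**Figure D5:**
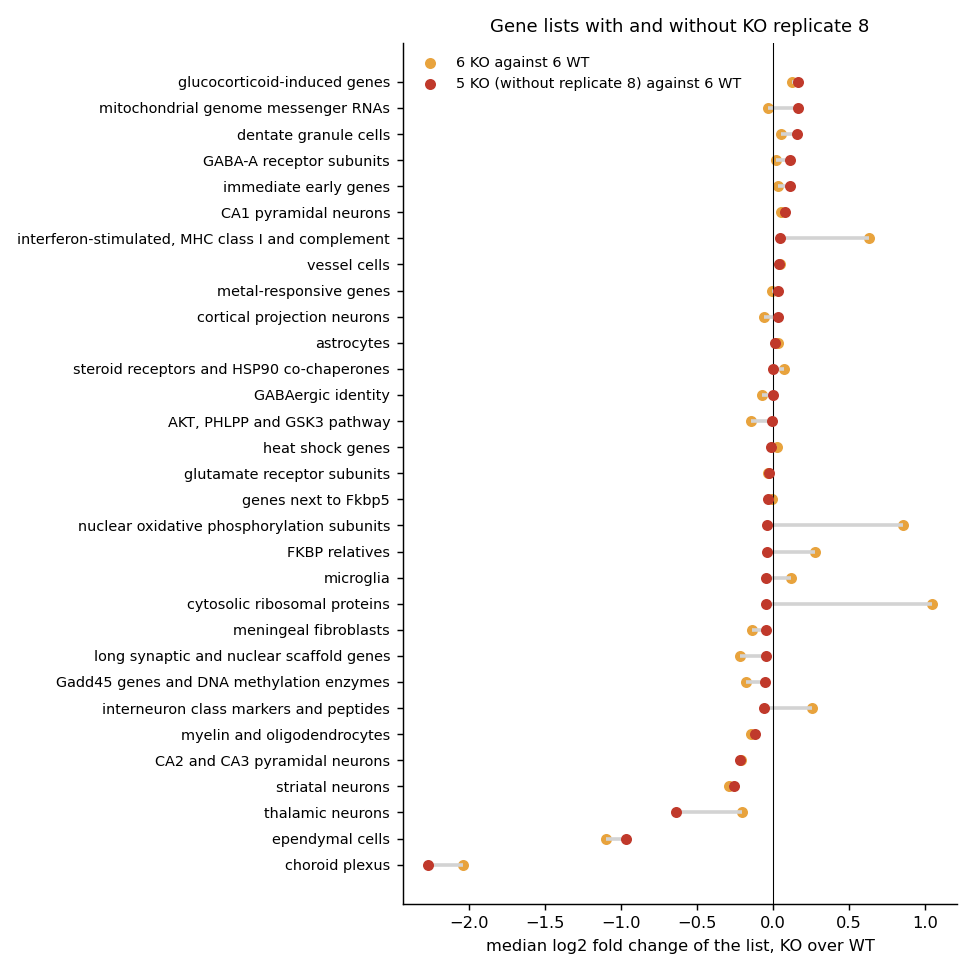
Median log2 fold change, KO over WT, of 31 gene lists with all 12 libraries and without KO replicate 8. Ribosomal, oxidative phosphorylation and interferon lists move from 1.05, 0.85 and 0.63 to values near 0 without that library, while the choroid plexus list stays near -2 in both.

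Tests of the difference called few genes. The sex by genotype interaction in Dlx hippocampus called 0 of 18293 genes (0%), with 1321 (7.22%) at an unadjusted p under 0.05 (5.73% higher, 1.49% lower), and DESeq2 and a fit with 1 surrogate variable also called 0. Without female KO replicate 8 the excess of higher genes was gone, with 761 genes at that threshold, 48.5% of them higher against 79.4% with it, and again 0 called. Its smallest p-values belonged to Taf12, the pseudogene Rps25-ps1 and Spag6, a protein of motile cilia, at -0.92 (SE 0.20). The region by genotype interaction in Dlx females called Fkbp5 alone of 18517 genes (0.0054%), with 725 (3.92%) at an unadjusted p under 0.05 (2.55% higher, 1.36% lower). Without replicate 8 it also called 1 gene, and the balance turned round, with 247 higher and 369 lower of 616 at that threshold. With the title number as a block it called 0 genes, and Fkbp5 had an edgeR adjusted p of 0.418. The line by genotype interaction in female hippocampus called 0 of 18289 genes (0%) by edgeR and 1, Fkbp5, by DESeq2, with 749 (4.1%) at an unadjusted p under 0.05 by edgeR (2.95% higher, 1.14% lower). Without replicate 8 there were 721, of which 345 were higher and 376 lower, and edgeR called 0.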

How the data were processed

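Total RNA libraries were counted in 95 mouse brain samples, of which 12 are compared here. The values used are raw counts per gene as the authors deposited them. HISAT2 2.0.5 and featureCounts 1.5.0-p3 are listed in the submitters' processing notes. The genome build was not stated. Of 54409 genes found in GENCODE M21, 98.3% had its GRCm38 coordinates. Whether counting used strand is not given, so overlapping antisense genes cannot be told apart. The 95 FPKM columns had lost decimal marks and were not used.

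Counts were tested with edgeR 4.0.16 in R 4.3.3 (filterByExpr, TMM scaling, quasi-likelihood test, Benjamini-Hochberg adjustment, threshold 0.05). The 4 groups of Dlx hippocampus, or the 4 groups of an interaction, were fitted together over 24 libraries. KO over WT contrasts of Dlx males, the bed nucleus and the Nex line come from such fits without female hippocampal replicate 8, unless stated. CPM are counts scaled to library size times TMM factor over 48 libraries. Single genes had an exact permutation test (two-sided) of log2(CPM + 0.5). Alternatives were DESeq2 1.42.0, RLE scaling, no filter, limma 3.58.1 weights, sva 3.50.0, a fit of only the KO and WT females, a replicate block and leaving out each library. Scripts were tested on simulated data. P-values measure the spread between these mice.

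Named genes are Fkbp5, Dlx5 and Dlx6, the 8 highest and 8 lowest by p at a mean of at least 1 CPM in each fit, up to 3 per list and the leading genes of each interaction, and not all of them are printed. The metallothionein Mt1, Tsc22d3, Plin4, Xdh, Sgk1, Per1, Klf9, Zbtb16, Ddit4, the peptides, receptors and chaperones given with values, and the sex-linked genes were chosen after their values were seen. The members and the 34 lists (558 symbols, 2 with no match) were chosen with earlier results of these data known. Some genes of these lists are counted with their list but not reported by name here.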

Additional observations from a re-analysis of the deposited data

Results flagged for a closer look

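In each group of 6 libraries the gap between the extreme library and its nearest neighbour was set against the group's whole range, where a share above 0.625 stands out. Chance alone marks about 1 in 20 groups, and 37 of the 158 groups looked at stood out. KO replicate 8 made 29 of them. It was high for Mt2 (0.852), Gm8430 (0.873), BC002163 (0.712), Rps13-ps2 (0.772), Gcat (0.701), Gadd45g (0.841), Fabp7 (0.739), Ccdc190 (0.695), Lamp5 (0.704), Fkbp3 (0.735), Rgs9 (0.723), Ndufb2 (0.901), Isg15 (0.738), Mt1 (0.812), Pvalb (0.849) and Fkbp4 (0.744). It was low for Clk1 (0.721), Ska2 (0.806), Dusp1 (0.675), Sox9 (0.686), Kdr (0.781), Col3a1 (0.733), mt-Nd4 (0.843), mt-Cytb (0.822), Gad1 (0.705), Gad2 (0.769), Nr3c2 (0.817) and Prox1 (0.743), and for the number of genes with a count (0.899).

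The 8 others were Gm9791, high in KO replicate 6 (0.63), and 7 WT values. Dlx6 (0.639) and Hsp90aa1 (0.637) were high and Gadd45g (0.637) and Xdh (0.735) low in WT replicate 1, while Lamp5 (0.694) and Per1 (0.696) were high and Gm42984 (0.796) low in WT replicate 11. The effect of the knockout on Fkbp5 differed between hippocampus and bed nucleus of Dlx females by 1.84 on the log2 scale (edgeR adjusted p = 0.0209), which did not pass with the title number as a block (1.82, edgeR adjusted p = 0.418).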

How the results depend on the processing

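With all 12 libraries the count of genes called by edgeR was 0. It was 1 with 1 surrogate variable, 2 with limma's library quality weights, 0 under DESeq2, RLE scaling, no filter and a fit of only the KO and WT females, and 0 when each library was left out in turn. Without KO replicate 8 it was 0, and 1 with quality weights. At an unadjusted p under 0.05, 77.7% of genes were higher in KO with all libraries, against 45.8% without replicate 8, 65.4% with DESeq2, 65.1% with no filter, 39.2% with a surrogate variable and 46.4% with quality weights. The counts behind these shares ran from 506, in a fit of only the KO and WT females, to 3256 with no filter. Without replicate 8 they ran up to 1889 with quality weights, and were lowest when KO replicate 7 was also left out, with 263 higher and 370 lower.

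Of 92 single-gene results 87 kept their direction in every setting run. Gadd45g turned from 0.52 with all libraries to -0.69 with a surrogate variable and -0.72 with quality weights, and ranged from -0.75 to 0.70 when each library was left out in turn, the lowest without KO replicate 8. Dlx5 turned to -0.03 with a surrogate variable and ranged from -0.03 to 0.09. Without replicate 8, leaving out a further library gave Fkbp5 from -0.13, without KO replicate 6, to 0.09, Dlx5 from -0.08 to 0.05 and Dlx6 from -0.10 to 0.24, and quality weights put Dlx5 at 0.00 and Dlx6 at -0.00. Of the list medians, 6 moved by more than the spread of replicates without replicate 8. The causes were not tested.

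The title numbers are shared between hippocampus and bed nucleus, so same-numbered libraries may come from the same mouse. Of 11 same-numbered pairs 1 correlated above 0.1 (median r = 0.04), against 4 of 61 other pairs (median r = 0). A correlation across regions cannot show whether 2 libraries share a mouse. The main fit did not pair them, and the replicate block is the alternative. With the replicate block the region by genotype count was 0 instead of 1, also without replicate 8, and the Fkbp5 difference was 1.82 (edgeR adjusted p = 0.418), or 1.70 without replicate 8 (edgeR adjusted p = 0.420). The line by genotype count was 1 with DESeq2, with Fkbp5 at 1.25. KO and WT share no number, so they could not be paired.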
